A study of Mus musculus with 4 samples.

Results

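The 32 genes described here encode enzymes that build cholesterol and fatty acids, together with the proteins that switch those enzymes on and off. They were taken from a fixed list and matched to array probes by RefSeq accession. The list held 18 enzymes of the sterol branch, 5 regulators and 9 enzymes of the fatty acid branch. Every gene had at least 1 probe. Of the 20886 genes that could be named on the array, 12542 were tested, and 29 of the 32 synthesis genes were among them (17 sterol, 5 regulator and 7 fatty acid). Lss, Fasn and Fads2 were too dim.

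RNA came from heart muscle cells of male mice aged 10 weeks that carried an αMHC promoter-driven Cre and tetO-controlled Oct4, Sox2, Klf4 and Myc, the OSKM factors. All animals had this genotype. The control group received PBS (2 arrays) and the other group received doxycycline by intraperitoneal injection (2 arrays), both for 2 days before the cells were isolated. The αMHC promoter is active in heart muscle cells. The labels do not say how a Cre line drives tetO factors, so which cells made the factors is not known from them. The labels describe no group that was given doxycycline without the factors, so drug and factors cannot be told apart.

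Cholesterol is made from acetyl-CoA. The first enzymes build mevalonate and turn it into isoprenoid units, which are joined to squalene, closed to a ring and trimmed to cholesterol. Fatty acids start from the same acetyl-CoA, which is carboxylated, elongated and then desaturated. Both routes are controlled by the membrane-bound transcription factors SREBP1 and SREBP2, encoded by Srebf1 and Srebf2. When sterol is plentiful the Insig proteins hold SREBP and its escort Scap in the endoplasmic reticulum. When sterol is scarce SREBP is carried to the Golgi, cut and released to the nucleus. Adult heart muscle uses fatty acids mainly as fuel and has a low rate of fatty acid synthesis.

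A level is the log2 processed signal less the array's own 75th percentile, so 0 is the brightness of the spot at that percentile. Within a group, array 1 is always given before array 2. A difference is the doxycycline mean less the control mean, and its standard error (SE) comes from a limma fit over all genes (n = 2 per group). That percentile lay between 112 and 248 signal units, and the share of spots well above background between 50.6% and 51.8%. Markers of heart muscle were bright on every array, with Myh6 levels of 10.28 then 9.73 under PBS, 9.17 then 9.81 under doxycycline. Of the introduced factors, Myc read -2.34 then -3.21 under PBS, 1.77 then -0.49 under doxycycline. Klf4 read 3.98 then 2.95 under PBS, 3.19 then 3.17 under doxycycline. Sox2 stayed near background throughout, and Pou5f1 (Oct4) was well above it on doxycycline array 1 alone. Control array 1 stood apart from the rest. It correlated with control array 2 at r = 0.933 across genes, below the 0.968 between control array 2 and doxycycline array 2 (genes are not independent replicates). The scanner software's own variation among repeated spots was 16.0% there, against 11.1% to 12.5% elsewhere. Results are therefore given with and without it. Nothing in the labels says that the arrays of a group came from separate animals, so the p-values reflect only how far these samples spread, and that spread may be technical.

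Enzymes of the sterol branch read slightly lower after doxycycline as a group, with a median difference of -0.51 over 17 genes. The median of all genes tested was -0.061. The difference was below 0 for 15 of the 17 and above 0 for Fdft1 and Hsd17b7. No single enzyme passed the limma test (smallest adjusted p = 0.448, for Dhcr7), and neither did any other gene of the array (0% of 12542 at an adjusted p under 0.05). At an unadjusted p under 0.05 Dhcr7 was the 1 sterol enzyme that was lower, and none was higher, where 3.89% of all genes were lower and 3.17% higher.

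Both doxycycline arrays lay below both control arrays for 12 of the 17 sterol enzymes and above both for Fdft1 alone. Over all genes tested, 20.8% lay below and 14.5% above. Without control array 1, both doxycycline arrays were below control array 2 for 15 enzymes (44.3% of all genes) and above it for 1 (28.4% of all genes), and the median difference was -0.54. Leaving out control array 2 gave -0.37, leaving out doxycycline array 1 gave -0.35 and leaving out doxycycline array 2 gave -0.52. These counts depend on how the arrays are scaled, because a change of scale moves every gene of an array alike. When each array was scaled to its median instead of its 75th percentile, all genes shifted upward by 0.35, the share of genes above control on average went from 45.2% to 71.1%, and 2 of the 17 sterol enzymes lay below both controls (8.88% of all genes). The difference was then below 0 for 11 of the 17, with a sterol median of -0.16. Relative to the median of all genes it was -0.45 under both scalings, which is so by construction. It was -0.27 with normexp background correction, -0.37 with quantile normalization and -0.17 with no filter on dim probes.

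**Figure D1:**
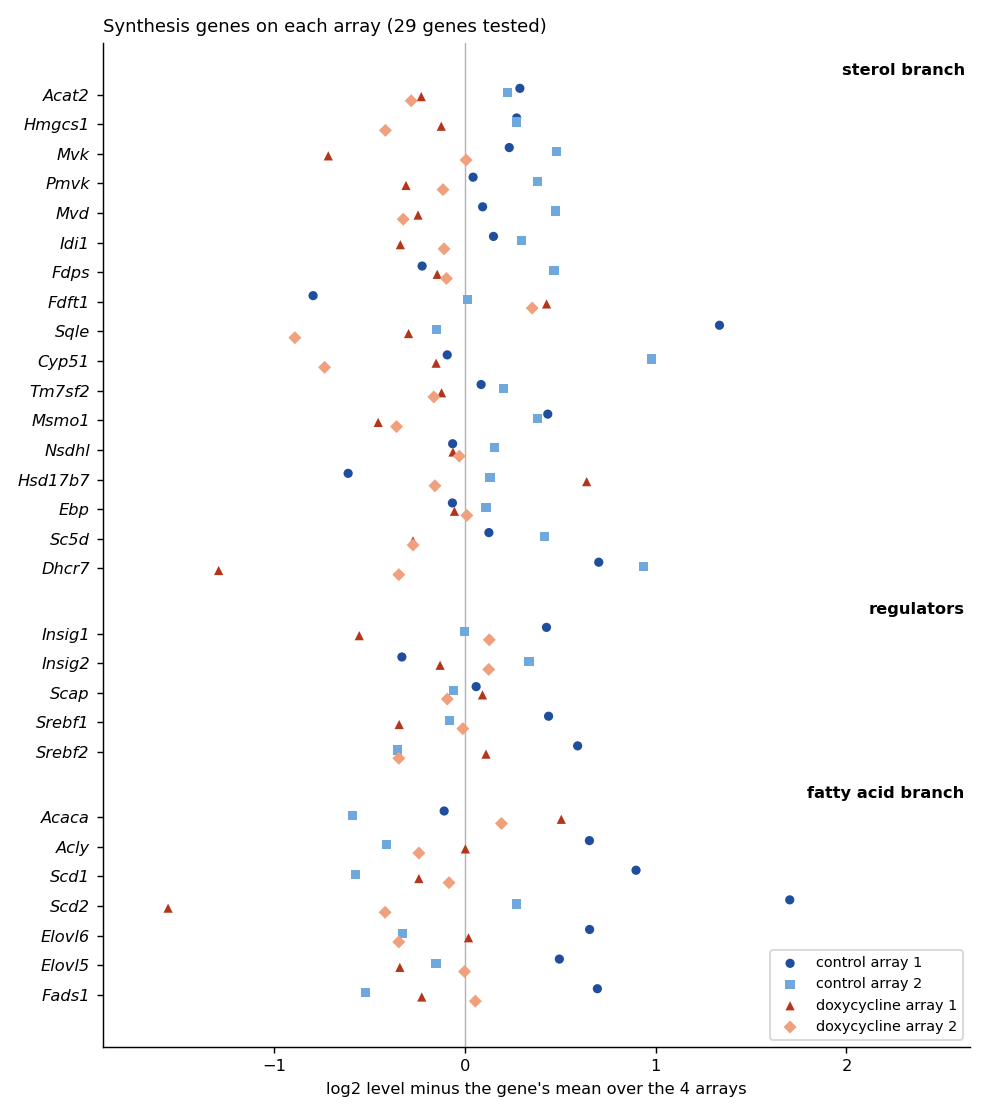
Log2 level of each synthesis gene on each array, minus the mean of that gene over the 4 arrays. Each symbol is 1 array. Genes of the sterol branch run from the first to the last step, and the others are in list order. In the sterol branch the doxycycline symbols lie left of both control symbols for 12 of 17 genes (20.8% of all genes). Under median scaling, not drawn here, that held for 2 of 17 (8.88% of all genes). In the fatty acid branch control array 1 lies right of control array 2 for all 7 genes.

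The enzymes that make mevalonate and its isoprenoid products, from Acat2 to Fdps, differed by -0.24 to -0.71. Hmgcs1, which forms HMG-CoA, had levels of 1.96 then 1.96 under PBS, 1.57 then 1.28 under doxycycline. Both controls were nearly equal and both doxycycline arrays lower, a difference of -0.54 ± 0.40 (SE, 1.46-fold lower, adjusted p = 0.895). Acat2, the thiolase that supplies acetoacetyl-CoA, differed by -0.51. A neighbouring gene, Acat3, resembles Acat2 closely, and its signal could be mixed in. Mevalonate kinase, Mvk, read 1.74 then 1.98 under PBS, 0.79 then 1.51 under doxycycline. Its groups did not overlap, and the difference was -0.71 ± 0.44 (SE, 1.64-fold lower, adjusted p = 0.874). It was -0.35 without doxycycline array 1 and -1.07 without doxycycline array 2. A second Mvk probe gave -0.60. The 2 enzymes that follow it are Pmvk and Mvd, which differed by -0.42 and -0.57, and a second Pmvk probe gave -0.45. Without control array 2 the differences were -0.25 and -0.38. Idi1, the isomerase of the isoprenoid unit, differed by -0.45 and also had groups that did not overlap. Fdps, which joins the units to farnesyl diphosphate, differed by -0.24 and had groups that overlapped, since control array 1 (1.20) lay below both doxycycline arrays (1.28 and 1.32). Without that array it was -0.59.

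The steps around squalene differed among themselves. Fdft1, the squalene synthase that commits farnesyl diphosphate to sterols, read 0.75 then 1.56 under PBS, 1.98 then 1.90 under doxycycline. It was the sterol enzyme with both doxycycline arrays above both controls, a difference of 0.78 ± 0.45 (SE, 1.72-fold higher, adjusted p = 0.848), or 0.37 without control array 1 and 1.19 without control array 2. A second Fdft1 probe was below background on every array and differed by -1.35. Sqle, the epoxidase that acts next, read -1.33 then -2.81 under PBS, -2.96 then -3.55 under doxycycline. Control array 1 was far above the other 3 arrays, so the difference of -1.19 ± 0.58 (adjusted p = 0.795) became -0.45 without it, and -1.93 without control array 2. Lss, the cyclase that closes the ring, was well above background on doxycycline array 2 alone, with processed signals of 8.66, 7.37, 11.4 and 14.1 in the order control array 1, control array 2, doxycycline array 1, doxycycline array 2. It was not tested.

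Among the enzymes that trim lanosterol to cholesterol, the largest differences were those of Dhcr7, Cyp51 and Msmo1. Dhcr7, the reductase that makes cholesterol from 7-dehydrocholesterol, read -2.30 then -2.07 under PBS, -4.29 then -3.35 under doxycycline. Both doxycycline arrays were more than 1 log2 unit below both controls. The difference was -1.64 ± 0.47 (SE, 3.11-fold lower), with a 95% interval of the fit from -2.76 to -0.51, and did not pass the limma test (adjusted p = 0.448). It was -1.76 without control array 1. Dhcr7 was dim, with processed signals of 22.8 then 40.8 under PBS and 12.7 then 18.9 under doxycycline, and doxycycline array 1 was not well above background. With a background correction that adds an offset (normexp), the difference was -0.62.

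The methylsterol oxidase gene Msmo1 showed little spread between replicates. It read 0.82 then 0.77 under PBS, -0.067 then 0.029 under doxycycline. Both doxycycline arrays lay more than 0.7 below both controls, and the difference of -0.81 ± 0.39 (SE, 1.76-fold lower, adjusted p = 0.786) was -0.79 without control array 1. The demethylase gene Cyp51 read -4.08 then -3.00 under PBS, -4.13 then -4.72 under doxycycline, a difference of -0.89 ± 0.51 (adjusted p = 0.850). It was well above background on control array 2 and doxycycline array 1 alone, and the difference was -1.42 without control array 1, -0.35 without control array 2 and -0.44 under quantile normalization. Sc5d, a desaturase, differed by -0.54 and Tm7sf2, a sterol reductase, by -0.29, and neither had overlapping groups. A second Tm7sf2 probe, well above background on all 4 arrays, gave -0.17 with groups that overlapped. Nsdhl and Ebp, a dehydrogenase and an isomerase, differed by -0.092 and -0.045, less than the spread between replicates. Their 95% intervals ran from -1.03 to 0.85 and from -0.98 to 0.89, so differences of close to 1 log2 unit either way could not be resolved. Another Nsdhl probe, well above background on 1 array, gave -0.66. Hsd17b7, a ketosteroid reductase, differed by 0.48 ± 0.49 (adjusted p = 0.935), with levels of -1.64 then -0.90 under PBS, -0.39 then -1.19 under doxycycline. Doxycycline array 1 alone exceeded both controls, and the difference was 0.083 without it and 0.11 without control array 1. A second Hsd17b7 probe gave 0.43.

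**Figure D2:**
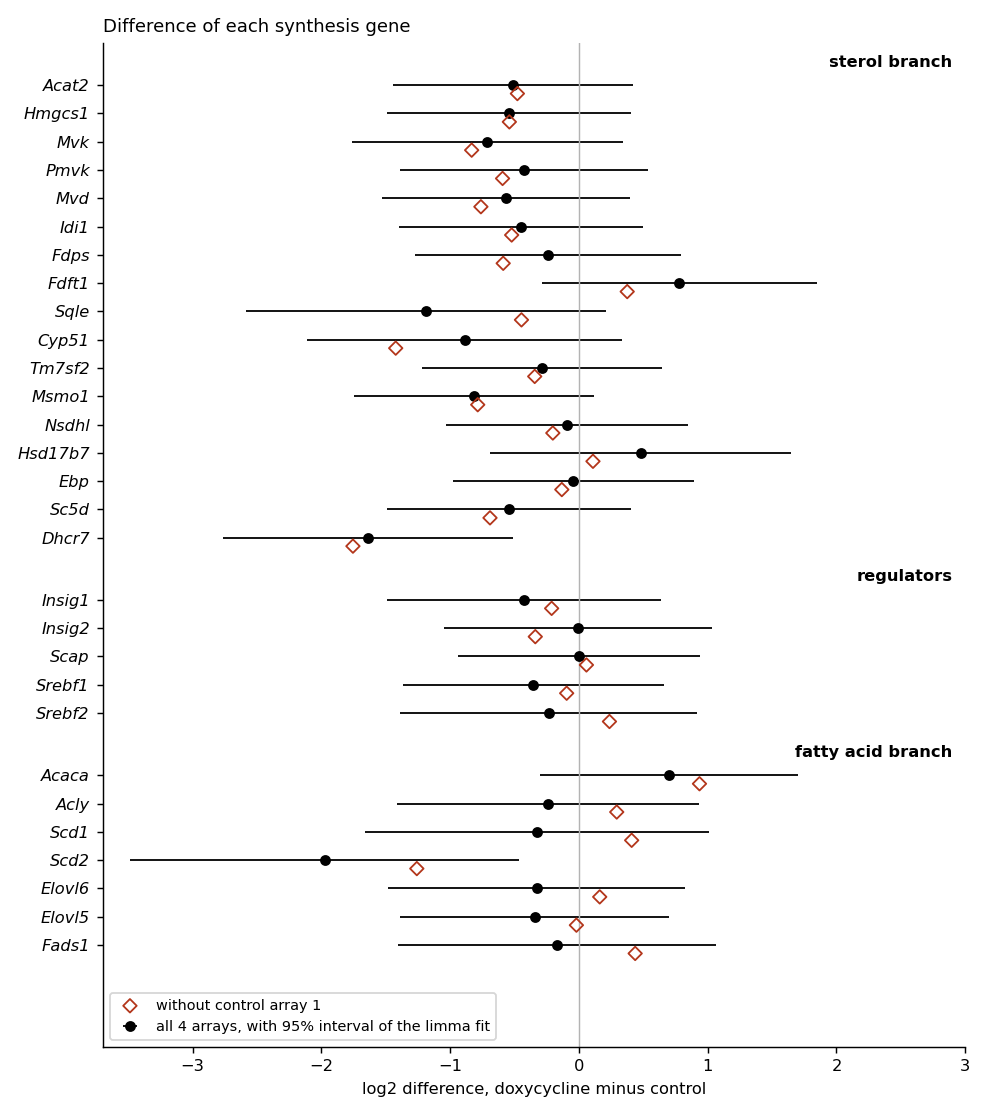
Log2 difference, doxycycline minus control, for the 29 synthesis genes tested. Black circles are the fit to all 4 arrays with its 95% interval, and open diamonds are the differences without control array 1. The interval leaves out 0 for Dhcr7 and Scd2, neither of which passed after adjustment over all genes.

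RefSeq promoters of assembly GRCm38.p6 were available for 26 of the 32 genes, as the 250 bases before each listed start site. Fdps, Fdft1, Sqle, Scd1, Scd2 and Fads1 had none. They are shown because most sterol enzymes lay on the same side of control and because SREBP is known to act beside the factors NF-Y and Sp1. The NF-Y box CCAAT, read on either strand, was present before a start site of 14 of the 15 sterol enzymes with a promoter, the exception being Acat2. Counted by start site it was present in 14 of 18, against 33.8% of all 32851 promoters. Of the fatty acid enzymes 2 of 6 held it (Elovl5 and Fasn), and of the regulators all but Scap (5 of 10 start sites). The Sp1 box GGGCGG was present in 15 of 18 sterol promoters (32.7% of all promoters) and the E-box CACGTG, which factors of the Myc family bind, in 3 of 18 (6.02% of all). Sterol promoters were richer in G and C (median 62.6%) than all promoters (52.4%). The sterol response element, searched as TCACNCCAC on both strands, was present in 1.05% of all promoters. Of the 26 genes Hmgcs1 alone held it, as TCACCCCAC, 137 bases before the start. These are matches of letters and not evidence of binding. No motif searched contains another, although neighbouring matches can share end bases.

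The 4 promoters printed here are those of Hmgcs1, the 1 match to the sterol response element, of Msmo1 and Idi1, which lay below control on both doxycycline arrays, and of Acly, an enzyme of the fatty acid branch with no NF-Y box. Each line is the 250 bases before the start, 5′ to 3′ in the direction of the gene, from RefSeq, assembly GRCm38.p6. Capitals mark the NF-Y box on either strand and, in Hmgcs1, also the sterol response element.
Hmgcs1 promoter, chr13:119690101-119690350, plus strand: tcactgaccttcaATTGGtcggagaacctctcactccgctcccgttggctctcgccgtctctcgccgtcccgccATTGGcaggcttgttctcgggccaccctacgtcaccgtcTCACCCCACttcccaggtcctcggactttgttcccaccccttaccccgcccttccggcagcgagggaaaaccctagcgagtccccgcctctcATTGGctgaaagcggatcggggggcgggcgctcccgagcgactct
Msmo1 promoter, chr8:64733579-64733828, minus strand: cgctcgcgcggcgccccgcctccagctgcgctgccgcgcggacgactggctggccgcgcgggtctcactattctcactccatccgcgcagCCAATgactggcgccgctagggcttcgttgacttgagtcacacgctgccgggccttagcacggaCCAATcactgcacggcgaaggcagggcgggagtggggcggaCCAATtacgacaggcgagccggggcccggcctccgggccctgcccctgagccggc
Idi1 promoter, chr13:8885356-8885605, plus strand: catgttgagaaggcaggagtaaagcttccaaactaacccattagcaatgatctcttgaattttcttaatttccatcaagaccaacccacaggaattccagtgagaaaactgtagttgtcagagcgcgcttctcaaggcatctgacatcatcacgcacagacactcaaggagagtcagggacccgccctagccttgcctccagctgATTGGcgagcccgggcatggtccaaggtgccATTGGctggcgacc
Acly promoter, chr11:100528001-100528250, minus strand: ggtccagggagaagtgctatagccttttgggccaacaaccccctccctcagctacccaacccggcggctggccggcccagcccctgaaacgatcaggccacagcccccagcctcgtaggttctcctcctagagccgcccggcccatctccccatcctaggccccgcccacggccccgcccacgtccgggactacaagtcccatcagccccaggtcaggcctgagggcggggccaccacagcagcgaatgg

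The NF-Y boxes of Msmo1 began 160, 96 and 55 bases before the start and those of Idi1 45 and 14 bases before it. In Hmgcs1 they began 237, 176 and 45 bases before the start, on both sides of the sterol response element. The difference was -0.54 for Hmgcs1, -0.81 for Msmo1, -0.45 for Idi1 and -0.24 for Acly (0.29 without control array 1). Hsd17b7, also with 3 boxes, differed by 0.48 (0.11 without control array 1). Ebp and Nsdhl, with 2 boxes each, differed by -0.045 and -0.092, and Acat2, with no box, by -0.51. Whether the boxes go with the differences was not tested.

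None of the 5 regulators differed by more than the spread between replicates. Their median difference was -0.24, and the doxycycline and control arrays overlapped for all 5. Over all genes, 20.8% lay below both controls and 14.5% above. The overlap depended on the processing. With normexp background correction, both doxycycline arrays lay below both controls for 3 regulators (29.7% of all genes) and above for 1 (13.9%). Srebf2, which encodes the factor that mainly drives sterol genes, read -1.98 then -2.92 under PBS, -2.46 then -2.92 under doxycycline. Control array 2 and doxycycline array 2 were equal to within 0.01, and the difference was -0.24 ± 0.48 (adjusted p = 0.976). Srebf1, whose SREBP1c product mainly drives fatty acid genes, read -2.29 then -2.81 under PBS, -3.07 then -2.73 under doxycycline. Control array 1 was the highest, and the difference was -0.36 ± 0.42 (adjusted p = 0.950), or -0.095 without it. The escort gene Scap read 2.51 then 2.39 under PBS, 2.54 then 2.35 under doxycycline, and doxycycline and control had the same mean to 2 decimals (95% interval -0.94 to 0.94).

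Insig1, itself a target of SREBP, read -3.15 then -3.57 under PBS, -4.13 then -3.44 under doxycycline. Doxycycline array 1 was the lowest and control array 1 the highest, a difference of -0.43 ± 0.45 (adjusted p = 0.936). It was -0.085 without the first of these and -0.21 without the second. Insig2, which retains SREBP without being its target, read 1.38 then 2.05 under PBS, 1.58 then 1.84 under doxycycline, and the groups overlapped with a difference of -0.0056 ± 0.44 (95% interval -1.04 to 1.03). Its second probe gave 0.064. Leaving out 1 array moved the median of the regulators to between -0.62, when control array 2 was dropped, and -0.093, when doxycycline array 1 was dropped (-0.095 when control array 1 was). Under median scaling it was 0.11, with 3 of 5 above 0. Srebf2 and Scap changed sign without control array 1 (to 0.24 and 0.058).

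The fatty acid branch held 1 gene far below control, Scd2, 1 gene above it, Acaca, 4 genes whose direction depended on control array 1, and Elovl5, which was close to 0 without it. Scd2 alone had both doxycycline arrays below both controls (20.8% of all genes) and Acaca alone had both above (14.5%). The median difference of the branch's 7 tested genes was -0.33. It was 0.29 without control array 1, -0.78 without control array 2 and 0.022 under median scaling. The difference changed sign without control array 1 for 4 of the 7 (28.2% of all genes). None of the genes passed the limma test (0% of all genes). Scd2 was lower at an unadjusted p under 0.05 (3.89% of all genes), and none was higher. Without control array 1 Acaca was higher at that threshold (4.44% of all genes), and Cyp51 and Dhcr7 were the sterol enzymes that were lower (5.06% of all genes).

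Scd2, a stearoyl-CoA desaturase that puts the first double bond into saturated fatty acids, read 1.44 then 0.0056 under PBS, -1.82 then -0.68 under doxycycline. Both doxycycline arrays were below both controls, and the spread within each group was more than 1 log2 unit. The difference was -1.97 ± 0.63 (SE, 3.93-fold lower, 95% interval -3.49 to -0.46, adjusted p = 0.528). It was -1.26 without control array 1 and -2.69 without control array 2. Its processed signals were 304 then 171 under PBS and 70.2 then 120 under doxycycline, well above background on all 4 arrays.

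The related desaturase Scd1 read -0.89 then -2.36 under PBS, -2.03 then -1.87 under doxycycline. Control array 1 was the highest and control array 2 the lowest, with both doxycycline arrays between them, so the difference was -0.33 ± 0.56 (adjusted p = 0.973) with all arrays and 0.41 without control array 1. Scd1 and Scd2 are close in sequence, and each was read by 1 probe. Whether the probes tell the 2 apart was not tested.

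Acaca, the acetyl-CoA carboxylase that commits acetyl-CoA to fatty acids, read -0.033 then -0.51 under PBS, 0.58 then 0.27 under doxycycline. Both doxycycline arrays were above both controls, a difference of 0.70 ± 0.42 (SE, 1.62-fold higher, adjusted p = 0.858), or 0.94 without control array 1 and 0.46 without control array 2. Its 2 other probes, below background on every array, differed by 0.93 and 0.67. Acly, which cuts citrate to acetyl-CoA in the cytosol, read 3.41 then 2.35 under PBS, 2.76 then 2.52 under doxycycline. Control array 1 was above the other 3, and the difference was -0.24 ± 0.49 with all arrays and 0.29 without control array 1. Another Acly probe, below background, differed by 0.55. Fasn, the fatty acid synthase, did not rise well above background anywhere, with processed signals of 5.14 then 4.07 under PBS and 4.61 then 6.63 under doxycycline.

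The elongases and front-end desaturases also read highest on control array 1. Elovl6, which extends palmitate, read -2.23 then -3.21 under PBS, -2.87 then -3.23 under doxycycline, and its difference went from -0.33 to 0.16 without control array 1. Elovl5, which extends polyunsaturated fatty acids, read 1.33 then 0.69 under PBS, 0.50 then 0.84 under doxycycline. Its difference went from -0.34 to -0.020. Fads1, the delta-5 desaturase, read 0.30 then -0.92 under PBS, -0.62 then -0.34 under doxycycline, and its difference went from -0.17 to 0.44. In each of the 3, both doxycycline arrays lay below control array 1 and closer to control array 2. Fads2, the delta-6 desaturase, was well above background on control array 1 alone (signal 13.0, against 2.25, 3.59 and 4.26 on control array 2 and doxycycline arrays 1 and 2) and was not tested.

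**Figure D3:**
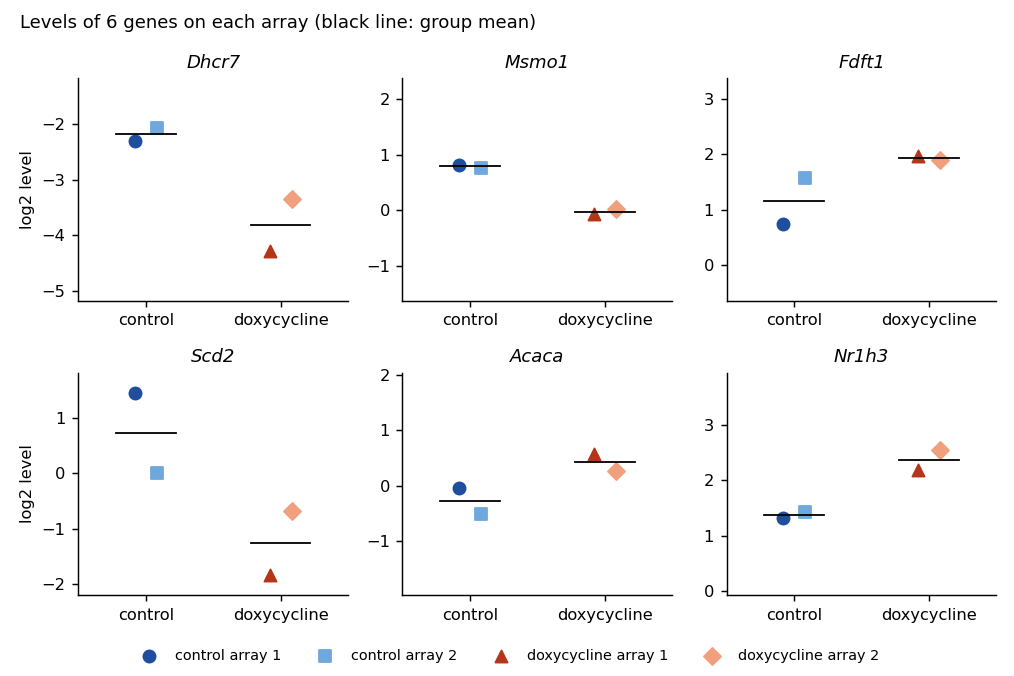
Log2 level on each array for the 2 sterol enzymes Dhcr7 and Msmo1 below control, the sterol enzyme Fdft1 above it, Scd2 and Acaca of the fatty acid branch, and the oxysterol receptor gene Nr1h3. Each symbol is 1 array and the black line is the group mean; every panel spans 4 log2 units. The 6 genes were taken from those whose doxycycline arrays do not overlap the control arrays. Over all genes tested, 20.8% lay below both controls and 14.5% above.

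Markers of other cell types moved with part of these results. All 7 tested genes of the fatty acid branch read higher in control 1 than in control 2, by 0.48 to 1.47 (median 1.07). Sterol enzymes went the other way, with 13 of 17 lower on control array 1 (53.4% of all genes) and a median of -0.23. Markers that were higher on control array 1 included 9 of 9 for fibroblasts (median 1.67), 10 of 10 for endothelium (1.70), 8 of 8 for macrophages (1.65), 6 of 6 for Schwann cells (1.69) and 9 of 10 for smooth muscle and pericytes (1.39). Of the heart muscle markers, 8 of 10 were lower there (median -0.72). What part these markers have in the differences was not tested. In bulk samples fewer cells of a type and less RNA per cell cannot be told apart.

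Scd2 read higher in control 1 than in control 2 and lower on average after doxycycline, as did all tested fibroblast and Schwann cell markers. The Schwann cell markers had a median difference of -1.53 after doxycycline and -0.94 without control array 1. All 6 tested were below control on average, where 45.2% of all genes were above. For 4 of the 6, both doxycycline arrays lay below both controls (20.8% of all genes). Their summed signal, in units of the 75th percentile of the array, was 2.17 to 6.55 under PBS and 0.907 to 1.76 under doxycycline. Of the 8 listed, 6 were tested, and Cdh19 stayed near background throughout. Fibroblast markers had a median difference of -2.49 (-1.47 without control array 1). All 9 tested were below control on average, and 6 of them had both doxycycline arrays below both controls. Without control array 1, 3 of the 9 turned above 0 (28.2% of all genes changed sign). Their summed signal was 67.1 to 217 under PBS and 77.4 to 83.3 under doxycycline. Scd2 itself differed by -1.97 and, between the controls, by 1.43. Their part in the result was not tested. Dhcr7 and Msmo1 differed by -0.23 and 0.055 between control array 1 and control array 2.

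The adipocyte markers Adipoq, Plin1, Lep and Adrb3, 4 of 8 listed, stayed near background throughout, as did Fasn. Cidea, Cfd and Retn, which were tested, read higher after doxycycline by 1.99, 2.18 and 0.97, and the summed signal of the list was 6.87 to 14.2 under PBS and 29.0 to 50.9 under doxycycline. Cidea alone made up 92.0% to 98.2% of that sum. Cidec was well above background on 1 array. Macrophage markers had a median difference of -1.08, smooth muscle and pericyte markers of -0.79, endothelial markers of -0.18 and mesothelial markers of -0.17. Without control array 1 these were -0.48 for macrophages, -0.094 for smooth muscle and pericytes, 0.49 for endothelium and -0.46 for mesothelium. The summed signal of the macrophage list, of which Cd163 stayed near background, was 7.34 to 21.0 under PBS and 6.94 to 8.29 under doxycycline. That of smooth muscle and pericytes was 68.8 to 85.2 under PBS and 27.3 to 35.0 under doxycycline, and that of endothelium 86.7 to 284 under PBS and 76.6 to 115 under doxycycline. Neutrophil markers read 2.33 (5 tested), red cell markers -1.64 (2 tested) and heart muscle markers 0.045. With control array 1 left out they read 2.82, -0.46 and -0.39. Summed signals did not always follow these medians. The neutrophil sum was 39.5 to 72.4 under PBS and 51.6 to 54.4 under doxycycline. For red cells it was 12.9 to 68.1 under PBS and 8.99 to 10.4 under doxycycline. For heart muscle it was 4429 to 4960 under PBS and 3154 to 3958 under doxycycline.

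**Figure D4:**
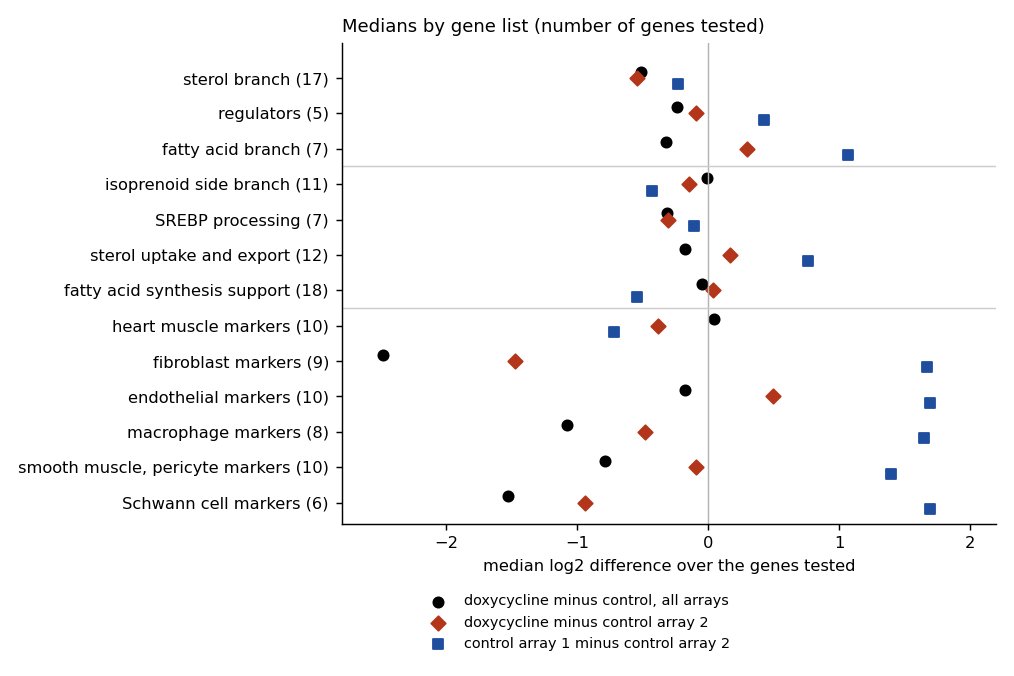
Median log2 difference of each gene list, with the number of genes tested in brackets. Black circles are doxycycline minus control with all arrays, red diamonds doxycycline minus control array 2, and blue squares control array 1 minus control array 2. The sterol branch is below 0 in the first 2 contrasts (-0.51 and -0.54), whereas the fatty acid branch changes side (-0.33 and 0.29).

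Genes that move sterol in and out of the cell differed in both directions. Of 13 listed, 12 were tested and none passed, with both doxycycline arrays above both controls for 3 (14.5% of all genes) and below for 4 (20.8%). Nr1h3, the oxysterol receptor LXR alpha, read 1.32 then 1.43 under PBS, 2.19 then 2.55 under doxycycline, a difference of 1.002 ± 0.40 (SE, 2.00-fold higher, adjusted p = 0.684), and 0.95 without control array 1. Both doxycycline arrays exceeded both controls by more than 0.7. Npc1, which carries cholesterol out of lysosomes, differed by 1.10 ± 0.46 (adjusted p = 0.706), and Abca1, the cholesterol exporter and a target of LXR, by 0.91 ± 0.47 (adjusted p = 0.815), both with groups that did not overlap. Leaving out control array 1 gave 0.68 for Npc1 and 1.40 for Abca1. The lipoprotein gene Apoe differed by -1.52 ± 0.61 (adjusted p = 0.684) and, without control array 1, by -0.74. Abca1 was picked after its values were seen.

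The proteins that hold, cut or degrade the SREBP system had a median difference of -0.32 over 7 of 8 genes, with 3 below both controls (20.8% of all genes) and none above (14.5%). Erlin2 and Erlin1, membrane proteins of the endoplasmic reticulum that bind the SREBP complex, differed by -0.75 ± 0.39 and -0.61 ± 0.42, and the protease gene Mbtps1, which makes the first cut in SREBP, by -0.40 ± 0.42. Without control array 1 they differed by -0.81 (Erlin2), -0.36 (Erlin1) and -0.17 (Mbtps1). In the isoprenoid side branch, 5 of 11 genes were above control on average and 6 below (median -0.0061). Icmt, which methylates prenylated proteins, differed by -1.14 ± 0.51 and -0.54 without control array 1, Nus1, a subunit of the enzyme that makes dolichol precursors, by 0.72 ± 0.46, and Coq2 of ubiquinone synthesis by 0.40 ± 0.49. Nus1 differed by 0.46 and Coq2 turned to -0.15 without control array 1.

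Genes that support fatty acid synthesis had a median difference of -0.045 over 18 of 21 genes. Both doxycycline arrays were above both controls for 4, namely Fads3 (0.78 ± 0.44), Acss2, which makes acetyl-CoA from acetate (0.76 ± 0.43), Acacb, the mitochondrial carboxylase whose product restrains fatty acid oxidation (0.76 ± 0.51), and Mecr of mitochondrial fatty acid synthesis (0.27 ± 0.41). Without control array 1 the differences were 0.63 for Fads3, 0.45 for Acss2, 0.17 for Acacb and 0.037 for Mecr. Mecr was named after its values were seen. Both doxycycline arrays were below both controls for 2, Hacd2 (-0.29) and Hacd3 (-0.40), likewise named after their values were seen. Over all genes tested, 14.5% lay above and 20.8% below. No gene of the 4 pathway lists passed the limma test (0% of all genes).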

How the data were processed

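RNA from adult mouse heart muscle cells was hybridised to 1-colour Agilent arrays, 4 in all and 2 per group. Agilent Feature Extraction 10.7.1.1 was the authors' scanner software, per the file headers. It subtracts the background and removes spatial trends, which gives the deposited processed intensity. Other deposited columns used were the median spot and background intensity and, per the file headers, flags for spots well above background or outlying. Probes were named through the RefSeq table of GRCm38.p6 (27508 of 39429 probes; the design build is mm9).

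Levels are log2 of the deposited processed intensity less each array's 75th percentile over non-control spots. Repeated spots were averaged after removal of outlying ones. Probes needed at least 2 of 4 arrays well above background (a share of 0.5 or more of their spots), and each gene was represented by its brightest probe. The two-sided test was that of limma 3.58.1 (lmFit, eBayes; R 4.3.3), with p-values adjusted by Benjamini-Hochberg over 12542 genes and a threshold of 0.05. The prior degrees of freedom were 4.69 and the residual ones 2. A permutation test of 2 against 2 arrays cannot give a p below 0.333. The number of arrays limits the precision. The fit was tested on simulated arrays.

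The gene lists were chosen with earlier results of these data known, so members carry no list test. Every member is named. Values on every array are given for the 6 sterol and 5 fatty acid enzymes with the smallest p, all regulators, and members that changed sign by more than 0.5 without control array 1, and 3 genes are named per pathway list. Hmgcs1, Hsd17b7, Abca1, Mecr, Hacd2 and Hacd3 were added after their values were seen. All arrays lay on 1 slide, with control arrays in the first positions, so position and group cannot be told apart. Figures were drawn with matplotlib 3.10.9. Some items are not reported here. Alternatives are in the closing section.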

Additional observations from a re-analysis of the deposited data

How the results depend on the processing

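Alternatives were normexp with an offset of 50 (on the median spot signal), quantile normalization, median scaling, no filter, detection required on all 4 arrays, averaged probes per gene, trended or robust variance, a block for the replicate number, and each array left out. In none of them did a synthesis gene pass. Apart from left-out arrays, 4 settings can move a member difference, and 99 of 116 such values kept their direction. The other 5 alter the members tested or the error alone. The 17 that turned were, under median scaling, Fdps 0.10, Tm7sf2 0.062, Nsdhl 0.26, Ebp 0.30, Insig2 0.34, Scap 0.35, Srebf2 0.11, Acly 0.11, Scd1 0.022, Elovl6 0.019, Elovl5 0.0042, Fads1 0.18, under normexp Ebp 0.057, Insig2 0.11, Scap 0.23, under quantile normalization Nsdhl 0.084, and with the mean of probes Insig2 0.029. Median scaling moves all genes by 0.35. It gave 95 genes higher and 33 lower in place of 0, and a sterol median of -0.16. With an array left out, 12 of 116 member differences turned, with ranges of Acly -0.77 to 0.29, Ebp -0.13 to 0.043, Elovl6 -0.82 to 0.16, Fads1 -0.78 to 0.44, Fdps -0.59 to 0.10, Insig2 -0.34 to 0.33, Nsdhl -0.20 to 0.018, Scap -0.093 to 0.092, Scd1 -1.06 to 0.41, Srebf2 -0.71 to 0.24. The fatty acid median ranged from -0.78 to 0.29, and the genes passing from 0 to 87 higher and from 0 to 84 lower. The calls came without doxycycline array 1 (17 and 15) or 2 (87 and 84), where the prior degrees of freedom were 1013 and 1 sample was assumed to vary like the other group. The cause was not tested.

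Same-numbered arrays did not deviate together (r = -0.085), so the numbers are not taken as pairs. With the replicate block, 152 genes were higher and 143 lower, none of them a synthesis gene (smallest adjusted p = 0.052, Scd2). In that fit the prior degrees of freedom were infinite, so every synthesis gene had the same SE (0.61). The calls therefore rest on a pooled variance and not on the spread of each gene. Dhcr7, Cyp51, Insig1, Lss, Fasn and Fads2 lay close to background, which limits their precision. Other members were dim too, though well above background on all 4 arrays. Among them were Sqle (processed signals 16.4 to 44.8), Elovl6 (18.5 to 34.1), Srebf1 (23.0 to 29.6) and Srebf2 (22.5 to 45.1). With normexp the Sqle difference was -0.67, against -1.19 in the main fit.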
